A study of Mus musculus with 6 samples.

Results

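The 7 genes described here encode the HMGA chromatin proteins (Hmga1, Hmga1b and Hmga2) and the RNA-binding proteins of the IGF2BP and LIN28 families (Igf2bp1, Igf2bp2, Igf2bp3 and Lin28b). They were taken by gene symbol, 7 of the 26264 symbols listed in each of 6 bulk RNA sequencing libraries. They were chosen by earlier measured differences between FGF8-treated and untreated cells in these libraries, so the values of all 7 are given as a description and were not tested. The libraries come from mouse brown preadipocytes of the stromal vascular fraction of interscapular fat (iBAT), labelled as wild-type Bl6N and immortalized with the SV40 large T antigen, a viral protein that binds the retinoblastoma protein and p53. The cells were left untreated (called vehicle in the methods) or pretreated with FGF8 at 5.5 nM for 48 h, and RNA was taken on day 0, straight after pretreatment, or after 3 or 9 days, with 1 library in each of the 6 conditions. Day 9 is labelled D7, for 7 days on differentiation medium after 2 days of induction. The labels give all 6 conditions the same immortalized cells, although their growth text describes primary white cells, and the day 0 libraries differed from the later ones in genes, described below, that bear on whether all 6 share an origin.

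HMGA proteins are small architectural proteins that bind the minor groove of AT-rich DNA. They are abundant in embryonic and dividing mesenchymal cells and low in most differentiated tissue, and Hmga2 is known in fat for its part in the growth of adipocyte precursors. IGF2BP proteins bind mRNAs and affect their stability, translation and transport, Igf2bp2 being the member that persists in adult tissue. LIN28B blocks the maturation of the let-7 microRNAs, and let-7 in turn targets the mRNAs of Hmga2, Igf2bp1 and Lin28b, which links the families in an oncofetal circuit.

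The let-7 seed and its matches in these mRNAs are shown first because they are a feature that the families share beyond their names. In the RefSeq table (build GRCm38.p6), 10 of 11 listed let-7 and miR-98 mature sequences have the seed GAGGUAG at bases 2 to 8, which is in capitals.
let-7a-5p: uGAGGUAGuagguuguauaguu
let-7g-5p: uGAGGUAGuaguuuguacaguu
miR-98-5p: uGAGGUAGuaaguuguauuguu
let-7j: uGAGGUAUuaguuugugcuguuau
The fourth, let-7j, is the exception, with the seed GAGGUAU.

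The seed match CTACCTC was searched on the sense strand in the longest annotated 3′ UTR of each gene (GENCODE M39, GRCm39). All 7 members held at least 1 match, compared with 12.5% of the 18754 genes with a 3′ UTR. Hmga2, Igf2bp1 and Lin28b held 4 matches each. Only 14 genes of the 18754 held that many, these 3 included. Length differs between 3′ UTRs, so each was also set beside genes within 20% of its length. For the 3021-base 3′ UTR of Hmga2, 17.6% of 3023 such genes held at least 1 match and 0.165% held 4. For the 1784-base 3′ UTR of Igf2bp2, which has 1 match, 12.8% of 2922 genes held at least 1. Matches are shown in capitals below, for the 4 of Hmga2 and for 1 match of other members. Hmga2 is shown in full because it differed most between FGF8-treated and untreated cells.
Hmga2, site 1, chr10:120200129-120200151, minus strand: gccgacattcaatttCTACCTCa
Hmga2, site 2, chr10:120198892-120198914, minus strand: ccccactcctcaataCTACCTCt
Hmga2, site 3, chr10:120198454-120198476, minus strand: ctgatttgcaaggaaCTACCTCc
Hmga2, site 4, chr10:120197596-120197618, minus strand: aatcaaaacacactaCTACCTCt
Igf2bp2, site 1, chr16:21878223-21878245, minus strand: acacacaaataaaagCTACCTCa
Igf2bp3, site 1, chr6:49063721-49063743, minus strand: tgcatttttactcaaCTACCTCa
Igf2bp1, site 1, chr11:95852604-95852626, minus strand: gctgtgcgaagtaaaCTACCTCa
Lin28b, site 1, chr10:45257118-45257140, minus strand: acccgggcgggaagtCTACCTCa
Hmga1b, site 1, chr11:120654824-120654846, plus strand: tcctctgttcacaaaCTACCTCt
Hmga1, site 1, chr17:27782251-27782273, plus strand: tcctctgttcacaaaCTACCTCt
The last 2 sequences, from Hmga1b and Hmga1, are the same over all 23 bases. A match describes the letters only and is not a measured binding site.

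**Figure D1:**
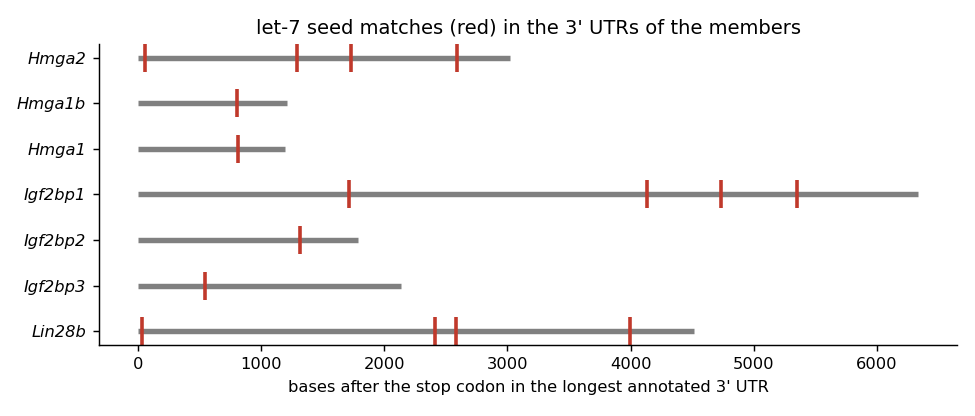
Positions of let-7 seed matches (red marks) along the longest annotated 3′ UTR of each member (grey bars, in bases after the stop codon). Hmga2, Igf2bp1 and Lin28b hold 4 matches each and the other members 1 each.

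Hmga1 and Hmga1b are copies that share long stretches of sequence, which limits what their counts mean. Hmga1 lies on chromosome 17 from 27775449 to 27782648 and Hmga1b on chromosome 11 from 120653620 to 120655245 (GRCm39), and both are annotated as protein coding. Their coding sequences of 324 bases have 0 differences between the annotated transcripts compared. The stretch from coding base 118 to 207, shown because a read from it cannot be placed in 1 copy, reads the same in both.
Hmga1 and Hmga1b: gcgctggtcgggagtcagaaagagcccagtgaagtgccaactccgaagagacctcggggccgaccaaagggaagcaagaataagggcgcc
Of the 1477 windows of 150 bases in the Hmga1b transcript, 1026 (69.5%) occur without mismatch in a transcript of Hmga1. Conversely, 958 of 4304 such windows (22.3%) in the longest coding transcript of Hmga1 occur in Hmga1b. Over all coding transcripts of Hmga1 the share was 43.4%. Hmga2, on chromosome 10 from 120197173 to 120313095, also has a copy, Hmga2-ps1, annotated as a lncRNA on chromosome 1 from 176662183 to 176663734. It shares no 150-base window with Hmga2 (0 of 1403), so reads can be told apart better there, although 112 of its 1503 windows of 50 bases are shared. Hmga2-ps1 is named because of its sequence and was chosen after its values were seen.

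The libraries held between 16403254 and 38551551 counts, and gave the depth behind all values. The day 0 libraries stood apart from the other 4 in a way that differentiation markers do not show. Xist, the noncoding RNA of the inactive X chromosome, had 2530 and 5837 counts in the untreated and FGF8 libraries of day 0 and 7 to 26 counts in the later libraries, while the Y-linked genes Ddx3y, Eif2s3y, Kdm5d and Uty had at least 703 counts in every library. Ifi202b had 10511 and 5711 counts at day 0 and at most 1 later. In all, 9 genes had at least 100 normalized counts in both libraries of day 0 and at most 3 counts in each other library (Ifi202b, Gbp2b, Mir6236, Ptchd1, Cdh18, Ctnna2, Fxyd6, Slfn3 and Zic1), and 0 genes met this rule for day 3 or for day 9. The rule cannot find genes that were absent at day 0 and present on both later days. Hoxb13, a positional homeobox gene, had 0 and 1 counts in the untreated and FGF8 libraries of day 0. It had 28 and 116 at day 3 and 75 and 103 at day 9. The genes of this paragraph were picked with their values in view. Whether the day 0 libraries came from the same line as the later ones was not tested. A difference between day 0 and a later day cannot be told apart from whatever sets the day 0 libraries apart. Both arms of day 0 carried Xist and the 9 genes of the rule, but at unequal levels. In normalized counts, untreated and FGF8-treated cells had 7105 and 1197 of Gbp2b, 3314 and 449.4 of Mir6236, 15439 and 7311 of Ifi202b, and 3716 and 7473 of Xist. The part of this in the FGF8 differences at day 0 was not tested.

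The labelled cell types were checked against markers. Summed over 10 adipocyte markers, such as Adipoq and Fabp4, the normalized counts in untreated and FGF8-treated cells were 9107 and 2906 at day 0. They were then 386664 and 671847 (day 3) and 549274 and 646161 (day 9). At day 3, 10 of 10 adipocyte markers were higher with FGF8, 3 of them at least 2-fold, against 3.8% of all genes. At day 9, 9 of 10 were higher and 0 passed 2-fold. The 10 preadipocyte markers summed to between 68664 and 226396 throughout. Their median fell over days 0, 3 and 9, from 11907 to 7581 and 4297 in untreated cells. In FGF8-treated cells it fell from 3871 to 1926 and 1228. The edgeR test of day 9 against day 0, described below, called 5 of 9 lower and 1 (Col1a1) higher (24.6% and 29.2% of all genes). Of the preadipocyte markers that averaged 20 normalized counts or more over the pair, 6 of 10 were at least 2-fold lower with FGF8 at day 0 (1 higher), as were 8 of 8 on each later day. Of all genes, 10.8%, 12.1% and 8.74% were lower on the 3 days. The macrophage marker Adgre1 had 0 counts in all libraries, and the 8 macrophage markers summed to at most 177.5 normalized counts. Ucp1, the uncoupling protein of brown fat, had 0 and 1328 normalized counts in untreated and FGF8-treated cells at day 0, then 319.5 and 4287 (day 3) and 91306 and 99587 (day 9). Myod1 and Myf5 of skeletal muscle had 0 counts in all libraries, but the 8 skeletal muscle markers together rose over the days. They summed to 8.81 and 8.96 normalized counts in untreated and FGF8-treated cells at day 0. Later sums were 105.6 and 225.3 (day 3) and 689.2 and 1227 (day 9). Des and Acta1 of this list passed the edgeR test described below as higher at day 9 than at day 0. Cdh5 of endothelium had at most 8.96 normalized counts, and the endothelial list was led by Kdr (1288 normalized counts in untreated cells and 7.68 in FGF8-treated cells at day 0) and Tek. The part of these marker differences in the results below was not tested.

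Hmga2 was the member that differed most between FGF8-treated and untreated cells, and the direction depended on the day. Its normalized count, the count divided by a median-of-ratios size factor, was 921.0 in untreated and 11345 in FGF8-treated cells at day 0. On day 3 the values were 259.6 and 110.2, and on day 9 they were 17.7 and 21.9. FGF8-treated cells at day 0 thus stood above every other library, and both day 9 libraries were near the detection filter. On the log2(normalized count + 1) scale the difference of FGF8 minus untreated was 3.62 at day 0 (12.3-fold, 95% counting interval of the log2 ratio 3.51 to 3.74), -1.23 at day 3 (interval -1.55 to -0.93) and 0.29 at day 9 (-0.53 to 1.15). The intervals are exact binomial intervals and cover counting error only, and without replicates none of these differences can be set against the variation between cultures. In bulk RNA, a change in the number of cells that express a gene and a change in RNA per cell cannot be told apart. At day 0 the increase was the 65th largest of 12657 genes that averaged 20 normalized counts or more over the pair. At day 9 Hmga2 had 25 and 27 counts, under that filter, too few to show a difference.

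The copy Hmga2-ps1 had 302.6 and 1402 normalized counts in untreated and FGF8-treated cells at day 0, then 39.5 and 12.6 (day 3) and 49.0 and 44.7 (day 9). Its log2 differences were 2.21 at day 0, -1.57 at day 3 and -0.13 at day 9, the same directions as Hmga2 at the first 2 time points. Hmga2-ps1 made up 24.7% of the summed counts of both loci in untreated cells at day 0 and 11.0% in FGF8-treated cells, then 13.2% and 10.3% (day 3) and 73.4% and 67.1% (day 9). At day 9 most of the few reads were thus listed under the copy. From day 3 to day 9 the copy was 1.24-fold higher in untreated and 3.54-fold higher in FGF8-pretreated cells, opposite to Hmga2. With the 2 loci summed, the log2 difference was 3.38 at day 0 and -1.28 at day 3.

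Hmga1b had 217.4 normalized counts in untreated and 1189 in FGF8-treated cells at day 0, then 222.7 and 393.8 (day 3) and 190.9 and 287.0 (day 9). The untreated libraries stayed within a narrow band and the FGF8 library was higher on each of the 3 days. The log2 difference was 2.45 at day 0 (5.47-fold, interval 2.20 to 2.71), 0.82 at day 3 (0.57 to 1.08) and 0.59 at day 9 (0.35 to 0.82). Hmga1, the annotated parent gene, was counted far less, with 2 and 9 counts at day 0, then 38 and 137 (day 3) and 70 and 80 (day 9). In normalized counts these were 2.94 and 11.5, 48.4 and 96.2, and 49.7 and 65.0. FGF8 was above untreated on each day for Hmga1 as well, by 1.67 on the log2 scale at day 0 (interval -0.30 to 5.22), by 0.98 at day 3 (0.46 to 1.55) and by 0.38 at day 9 (-0.09 to 0.87), with intervals that reached below 0 at days 0 and 9 and a mean under the filter of 20 at day 0. Because reads may have been split between the copies, their sum is the safer measure. Summed, the 2 loci had 220.3 and 1201 normalized counts at day 0, then 271.1 and 490.0 (day 3) and 240.6 and 352.0 (day 9), with log2 differences of 2.44, 0.85 and 0.55.

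The share of the summed counts that was listed under Hmga1 did not follow FGF8 but the day. It was 1.33% in untreated (exact binomial 95% interval 0.162 to 4.73%) and 0.959% in FGF8-treated cells (0.440 to 1.81%) at day 0. On day 3 it was 17.8% and 19.6% and on day 9 it was 20.6% and 18.5%, and the lowest bound of these 4 intervals was 12.9%. The 2 day 0 libraries thus lay apart from the 4 later ones, and within either set the intervals of all libraries overlapped. This split coincides with the one made by Xist and Ifi202b. Its cause was not tested. On the opposite strand, Hmga1 shares 671 exonic bases with the protein-coding gene Smim29, a symbol not among those listed. The strand setting of the counting is not given in the sources used here. The part of this overlap in the counts of Hmga1 was not tested.

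**Figure D2:**
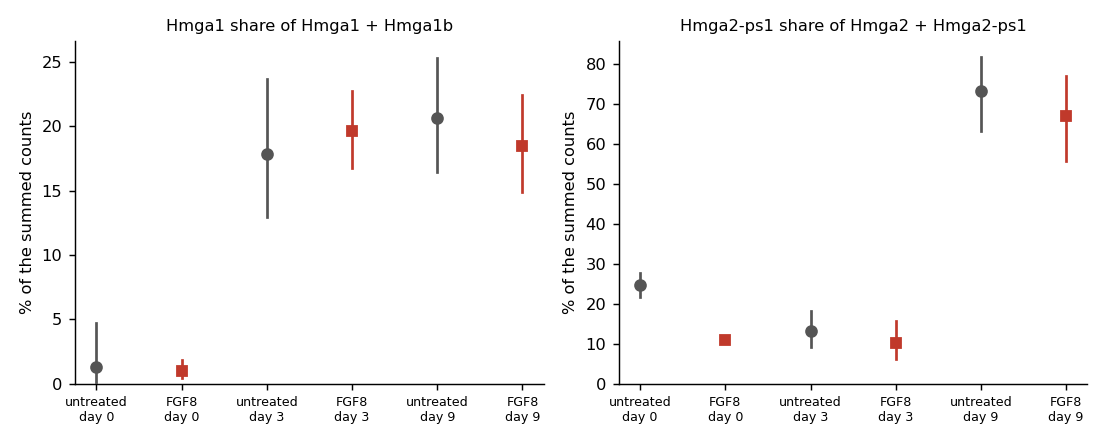
Share of counts listed under Hmga1 among Hmga1 and Hmga1b (left) and under Hmga2-ps1 among Hmga2 and Hmga2-ps1 (right), in percent, for each library (grey circles untreated, red squares FGF8), with exact binomial 95% intervals. Hmga1 takes 0.959 to 1.33% at day 0 and 17.8 to 20.6% later, and Hmga2-ps1 takes 67.1 to 73.4% at day 9.

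Among the IGF2BP genes, Igf2bp2 was higher with FGF8 at day 0, and Igf2bp1 and Igf2bp3 stayed within 2-fold on every day. Igf2bp2, on chromosome 16 from 21877759 to 21982499, had 2108 normalized counts in untreated and 4739 in FGF8-treated cells at day 0, then 1606 and 1517 (day 3) and 1178 and 1436 (day 9). Its highest library was, as for Hmga2 and Hmga1b, FGF8 at day 0. The log2 difference was 1.17 at day 0 (2.25-fold, interval 1.08 to 1.26), -0.08 at day 3 (-0.18 to 0.02) and 0.29 at day 9 (0.19 to 0.38). Igf2bp3, on chromosome 6 from 49062144 to 49192447, had 1598 and 1395 normalized counts at day 0, then 1241 and 1133 (day 3) and 946.2 and 699.1 (day 9). FGF8 was slightly below untreated on all 3 days, by log2 differences of -0.20, -0.13 and -0.44. Igf2bp3 shares 1685 exonic bases with Malsu1 on the opposite strand, which had 282.5 to 607.3 normalized counts, and the strand setting of the counting is not given in the sources used here. Malsu1 did not move with Igf2bp3, with log2 differences of -0.03, 0.72 and 0.35 on the 3 days.

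Igf2bp1, the fetal zipcode-binding protein, on chromosome 11 from 95847989 to 95896911, was counted least of the 3. It had 42.6 and 71.7 normalized counts at day 0, then 185.8 and 182.5 (day 3) and 192.4 and 112.2 (day 9). The log2 difference was 0.74 at day 0 (interval 0.08 to 1.45), -0.03 at day 3 (-0.32 to 0.28) and -0.77 at day 9 (-1.08 to -0.48), so the sign at day 0 was the opposite of that at day 9. The difference between the days was not tested.

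Lin28b, on chromosome 10 from 45252646 to 45362557, had 2 counts in untreated cells at day 3 and 0 counts in the other 5 libraries. A count of 0 allows up to 0.183 CPM (counts scaled to the library total) in the shallowest library (untreated, day 0) and up to 0.0778 in the deepest (untreated, day 9). Its paralog Lin28a had 0 counts in all 6. The LIN28 arm of the circuit was therefore at or below the floor of 3 counts throughout, and no fold is given.

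**Figure D3:**
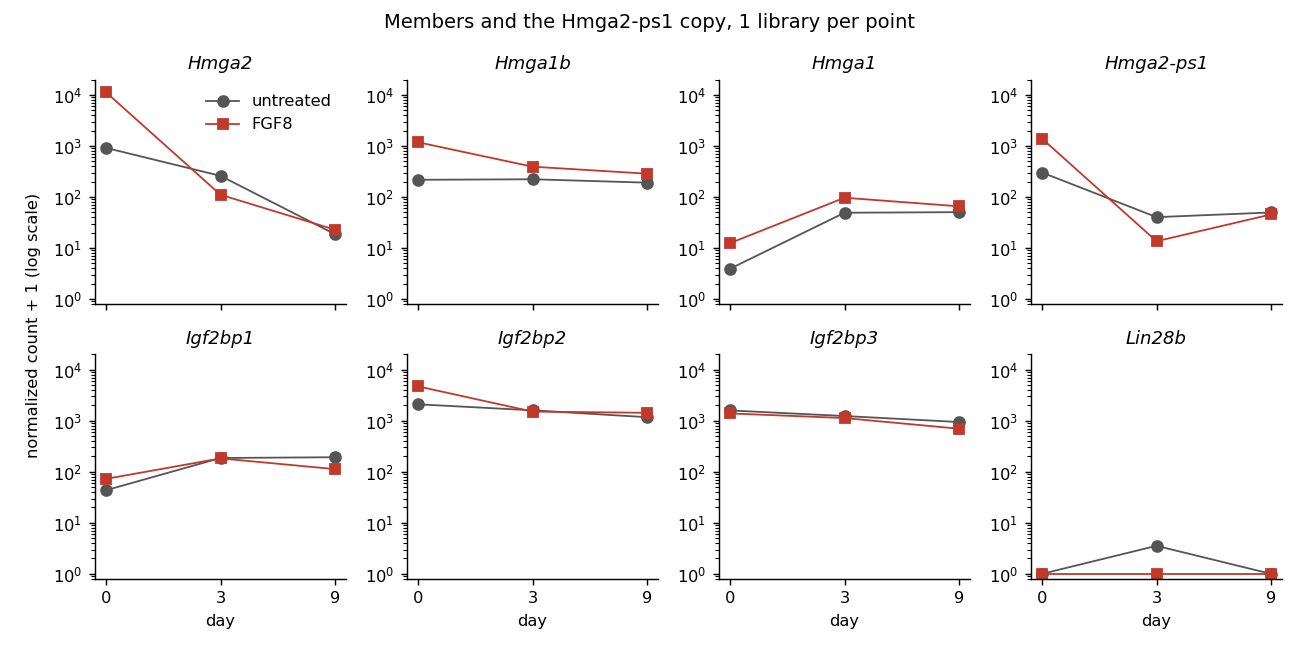
Normalized count plus 1 (log scale) of each member and of the copy Hmga2-ps1 by day, with 1 library per point (grey circles untreated, red squares FGF8). Hmga2 goes down from 11345 to 21.9 in the FGF8 arm, and Lin28b has at most 2 counts.

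Counted by a rule of 2-fold among members that passed the filter of 20, 3 of 5 passing members were higher with FGF8 at day 0 (Hmga2, Hmga1b and Igf2bp2) and 0 were lower. Over all genes tested the rule called 7.27% higher and 10.8% lower at day 0. At day 3, 0 of 6 were higher and 1 (Hmga2) was lower, against 3.8% and 12.1% of all genes. At day 9, 0 of 5 were called in either direction, against 1.12% and 8.74%. Since the members were chosen with these differences known, nothing is read from the counts. Closest to the limit were Hmga1 at day 3 (1.99-fold, interval 1.38 to 2.93 as a ratio) and Igf2bp2 at day 0 (2.25-fold). The median log2 difference of the passing members was 1.17, -0.05 and 0.29 on the 3 days, and that of all genes tested was 0.05, 0.08 and 0.08.

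**Figure D4:**
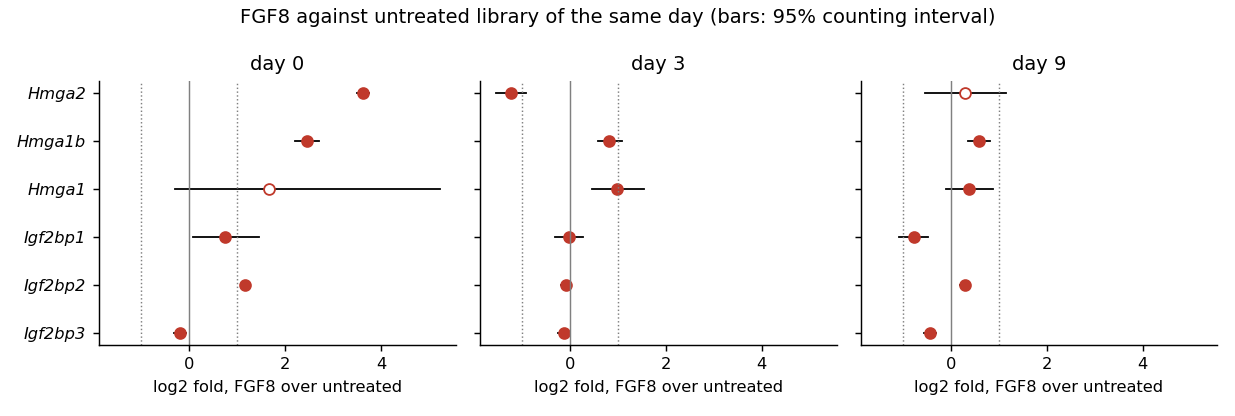
Log2 fold of FGF8 over untreated for 6 members on each day, with 95% counting intervals (bars) and 2-fold limits (dotted). Open circles have a mean under 20 normalized counts. Hmga2 lies at 3.62 at day 0 and at -1.23 at day 3.

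**Figure D5:**
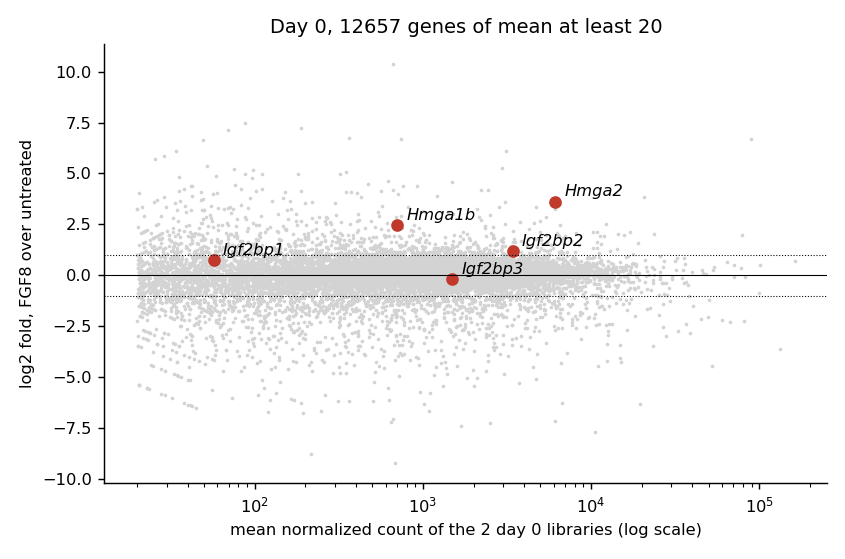
Mean normalized count (log scale) and log2 fold of FGF8 over untreated at day 0 for 12657 genes (grey), with the 5 members that passed the filter in red. Hmga2, Hmga1b and Igf2bp2 lie above the dotted 2-fold line, Igf2bp1 (0.74) and Igf2bp3 (-0.20) between the lines.

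The promoters of the 3 genes that were higher together at day 0 are shown with the motif matches found in them in capitals (RefSeq, GRCm38.p6, 250 bases before to 50 after the start). Motifs were searched on both strands. The AP-1 motif was spelled TGACTCA and the cyclic AMP response element TGACGTCA. The motif of ETS factors was CCGGAAGT and that of E-box factors was CACGTG. The motif searched for SP1 was GGGCGG, that searched for the factor NF-Y was CCAAT, and the TATA box was searched as the letters TATAAA. These motifs do not overlap each other in the promoters shown.
Hmga2, chr10:120476420-120476719, minus strand: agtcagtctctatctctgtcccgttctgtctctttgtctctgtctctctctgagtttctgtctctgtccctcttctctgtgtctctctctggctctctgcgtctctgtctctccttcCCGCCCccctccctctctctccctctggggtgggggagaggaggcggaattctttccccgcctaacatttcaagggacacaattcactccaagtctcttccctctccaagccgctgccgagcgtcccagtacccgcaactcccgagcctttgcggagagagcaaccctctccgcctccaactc
Igf2bp2, chr16:22163250-22163549, minus strand: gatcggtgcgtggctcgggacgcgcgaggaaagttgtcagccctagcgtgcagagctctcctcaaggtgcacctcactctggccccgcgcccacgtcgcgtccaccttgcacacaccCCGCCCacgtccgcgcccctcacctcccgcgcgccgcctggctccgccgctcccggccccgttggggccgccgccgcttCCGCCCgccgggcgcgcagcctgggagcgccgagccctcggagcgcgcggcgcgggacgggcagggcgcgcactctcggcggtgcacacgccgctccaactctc
Hmga1b, chr11:120762544-120762843, plus strand: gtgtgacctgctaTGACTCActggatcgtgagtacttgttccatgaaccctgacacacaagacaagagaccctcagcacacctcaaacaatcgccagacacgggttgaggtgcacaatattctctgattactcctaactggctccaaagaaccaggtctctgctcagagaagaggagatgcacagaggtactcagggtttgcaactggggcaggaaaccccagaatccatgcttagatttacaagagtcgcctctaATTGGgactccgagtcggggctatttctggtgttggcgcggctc
Hmga2 held 1 match of GGGCGG and Igf2bp2 held 2, and 35.7% of all 32851 promoters in the table held at least 1. Hmga1b held 1 match of TGACTCA (5.2% of all promoters) and 1 of CCAAT (37.4%). No motif was found in all 3. Counts listed under Hmga1b may include reads of Hmga1, whose listed promoters, not shown, held 4 matches of GGGCGG each. Which of these promoters gave the reads was not tested. The GC content was 57.7%, 76.7% and 51.3%, compared with a median of 52.7% over the table.

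Levels were compared between genes per transcript length, as TPM (counts divided by merged exon length and scaled to the same total in each library). In untreated cells at day 0 the order was Igf2bp2 at 62.0 TPM, Igf2bp3 at 43.3, Hmga1b at 31.6, Hmga2 at 25.3, Igf2bp1 at 0.980, Hmga1 at 0.150 and Lin28b at 0. In FGF8-treated cells Hmga2 came first at 326.7 TPM, followed by Hmga1b at 181.6, Igf2bp2 at 146.5 and Igf2bp3 at 39.7. The order of Hmga1b and Igf2bp2 depended on the length used, since the longest annotated transcripts gave Hmga1b 123.7 TPM and Igf2bp2 161.9. By day 9 Hmga2 was at 0.409 TPM in untreated and 0.487 in FGF8-treated cells, and Igf2bp2 was first in both arms at 29.1 and 34.2. With 1 library per condition there is no spread over samples to separate neighbours in these orders, and reads of Hmga1 and Hmga1b can be shared.

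Between days, Hmga2 was lower at each later time point in both arms. In untreated cells its normalized count was 3.55-fold lower at day 3 than at day 0 and 14.6-fold lower at day 9 than at day 3. In FGF8-pretreated cells the first step was 103-fold and the second 5.02-fold. The first step rests on the day 0 libraries that stood apart, whereas the second, from day 3 to day 9, does not. From day 3 to day 9, Hmga2 was the only member called in either arm, 1 of 6 in each and lower in both. Of all genes, 8.77% were at least 2-fold higher and 4.42% lower in untreated cells, and 8.16% and 5.4% in FGF8-pretreated cells. With Hmga2-ps1 added to Hmga2, 0 members were called in the FGF8 arm.

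Igf2bp1 and Hmga1 went the other way from day 0 to day 3. Igf2bp1 was 4.36-fold higher in untreated and 2.55-fold higher in FGF8-pretreated cells, and Hmga1 was 16.5-fold (interval 4.25 to 141) and 8.35-fold higher. In the FGF8 arm, Igf2bp2 was 3.12-fold and Hmga1b 3.02-fold lower at day 3 than at day 0, while in untreated cells Igf2bp2 was 1.31-fold lower and Hmga1b 1.02-fold higher. In total, 2 of 6 passing members were higher and 1 lower at day 3 in untreated cells (19.5% and 15.5% of all genes), and 2 were higher and 3 lower in the FGF8 arm (24.1% and 22.0%). At day 9 against day 0 the counts were 2 higher and 1 lower in untreated cells (23.7% and 19.5% of all genes) and 1 higher and 3 lower in the FGF8 arm (26.1% and 22.6%). Igf2bp3 in the FGF8 arm lay at the limit, with a log2 difference of -0.996 between day 9 and day 0. All of these comparisons use the day 0 libraries. With Hmga1 and Hmga1b summed, the difference from day 0 to day 3 in untreated cells was 0.30 on the log2 scale (interval -0.01 to 0.61), against 3.65 for Hmga1 alone. In the FGF8 arm the sum was 2.45-fold lower at day 3 than at day 0 (log2 difference -1.29, interval -1.44 to -1.15), the opposite direction to Hmga1 alone. With the sum in place of the 2 genes, 1 member (Igf2bp1) was called higher at day 3 in each arm, and at day 9 against day 0 the count of higher members was 1 in untreated cells and 0 in the FGF8 arm.

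Genes of the same pathways were examined through 8 lists, in which 119 genes entered a test of the FGF8 effect over the 3 days (edgeR's quasi-likelihood test, day as a block, Benjamini-Hochberg adjustment over all 13868 genes tested). It called 3 of the 119 at an adjusted p-value under 0.05, all lower, and 0 higher, where it called 1.08% of all genes lower and 0.0144% higher. At an unadjusted p under 0.05, 26 of the 119 were higher and 16 lower, where 3273 of all 13868 genes passed in either direction. DESeq2's Wald test called 10 listed genes higher and 11 lower, where it called 472 higher and 1220 lower of 13787 genes. The 3 called genes were Thbs1 of the let-7 targets (an anti-angiogenic matrix protein), and Dlk1 and Meg3 of the imprinted genes, with log2 effects of -1.96, -1.23 and -1.70 and edgeR adjusted p-values of 0.0445, 0.0448 and 0.0445, each lower on 3 of 3 days. Over the 7 alternatives the largest adjusted p of each was 1.00. Dlk1 was named after its values were seen. Without day 3 or without day 9 the test called 0 of the listed genes (17 and 23 at an unadjusted p under 0.05). It called 0 of all genes as well, with 1510 of 14256 and 1868 of 13743 at an unadjusted p under 0.05. Without day 0 it called 26 listed genes, and 2230 of all 14367 genes.

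Machinery that processes or degrades let-7 was within 2-fold on each day. Of 15 tested genes of this list, 0 were at least 2-fold higher or lower at day 0, day 3 or day 9, with median log2 differences of 0.05, 0.07 and 0.16. Of all genes, 7.27%, 3.8% and 1.12% were higher on the 3 days, and 10.8%, 12.1% and 8.74% were lower. Tut7, a terminal uridylyltransferase that tails let-7 precursors, had 5855 and 3119 normalized counts at day 0, a log2 difference of -0.91, Xpo5, the exportin of precursor microRNAs, had 0.67, and Hnrnpa1, which binds a let-7 precursor, had 0.67. Mature let-7 is not measured in these mRNA libraries, and the 12 listed let-7 and miR-98 hairpin symbols had 0 to 28 counts, the highest of them Mirlet7d.

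Of the let-7 target genes, 2 of 23 tested were at least 2-fold higher and 2 lower with FGF8 at day 0 (7.27% and 10.8% of all genes). At day 3, 0 and 3 of 24 were (3.8% and 12.1%), and at day 9, 0 and 1 of 24 (1.12% and 8.74%). Ccnd1, encoding cyclin D1, had 849.0 and 4344 normalized counts in untreated and FGF8-treated cells at day 0, a difference of 2.35 on the log2 scale, and had 0.31 and 0.62 on the later days. Thbs1 was lower on all 3 days (-2.02, -2.12 and -1.65), and Fas, a death receptor, had -1.94, -1.10 and -0.40. Genes outside the members were also grouped by their seed matches at day 0. The 39 tested genes with 3 or more matches had a median log2 difference of -0.01, with 7.69% at least 2-fold higher and 12.8% lower. For the 237 genes with 2 or more matches the values were 0.07, 7.59% and 6.75%. For the 10124 genes without a match they were 0.05, 6.96% and 10.7%. The part of let-7 in the FGF8 differences was not tested.

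Proteins found in IGF2BP ribonucleoprotein particles were mostly slightly higher. At day 0, 18 of 21 tested had a difference above 0, with a median of 0.39 (0.05 for all genes). Only 2 were at least 2-fold higher and 1 lower (7.27% and 10.8% of all genes). At days 3 and 9, 0 of 20 passed 2-fold in either direction. Pabpc4, a poly(A)-binding protein, had a log2 difference of 1.07 at day 0, Stau2, a double-stranded RNA-binding protein, 0.94 at day 3, and Mov10, an RNA helicase, -1.08 at day 0. Transcripts known to be bound by IGF2BP proteins showed 1 higher and 2 lower of 9 at day 0 (7.27% and 10.8% of all genes). They showed 0 and 6 of 9 at day 3 (3.8% and 12.1%), and 0 and 1 of 8 at day 9 (1.12% and 8.74%). Igf2, the fetal growth factor that gave the family its name, had 345.2 normalized counts in untreated and 143.4 in FGF8-treated cells at day 0, then 66.2 and 21.1 (day 3) and 26.3 and 9.76 (day 9). The log2 difference of Igf2 was -1.26 at day 0 and -1.61 at day 3. At day 9 its mean was under the filter of 20, with a difference of -1.34 and a counting interval of -2.50 to -0.46. The edgeR test of the FGF8 effect did not call Igf2, whereas the test of day 9 against day 0, given below, called it lower. By comparison, Ptgs2, encoding cyclooxygenase, had 1.29 on day 0 and -1.55 on day 3. Lamb2, a laminin chain, had -1.42, -1.40 and -0.69.

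The other HMG proteins did not share the day 0 pattern of Hmga2 as a group. Of 11 tested, 1 was at least 2-fold higher and 1 lower at day 0, then 2 and 0 (day 3) and 0 and 0 (day 9), with medians of 0.33, 0.32 and 0.30. Of all genes, 7.27%, 3.8% and 1.12% were higher on the 3 days and 10.8%, 12.1% and 8.74% lower. The medians of all genes were 0.05, 0.08 and 0.08. Hmgb3 was higher at days 0 and 3 (1.77 and 1.15), Hmgn5, a nucleosome-binding protein, at day 3 (1.30), and Hmgb1 was lower at day 0 (-1.29). Proliferation genes passed 2-fold in 0 of 20 cases at day 0, 1 at day 3 (Rrm2, a ribonucleotide reductase subunit, 1.08) and 0 at day 9, although all 20 lay above 0 at days 3 and 9, with medians of 0.32, 0.51 and 0.26. Aurka had 0.91 at day 3 and E2f1 0.79 at day 0.

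Among imprinted genes of fetal growth, 2 of 11 passed edgeR's test, both lower (Dlk1 and Meg3). Of 10 that passed the filter on a day, 0 were at least 2-fold higher and 4 lower at day 0, then 0 and 4 (day 3) and 2 and 4 (day 9). By the same rule, 10.8%, 12.1% and 8.74% of all genes were lower on the 3 days, and 7.27%, 3.8% and 1.12% were higher. The median log2 differences of the imprinted genes were -0.82, -0.87 and -0.57. Mest had 2562 normalized counts in untreated and 58.9 in FGF8-treated cells at day 0, a log2 difference of -5.42, and Plagl1, a zinc finger factor that regulates other imprinted genes, had 6437 and 755.3, a difference of -3.09. At days 3 and 9 the differences were -1.59 and -1.13 for Mest and -1.50 and -1.45 for Plagl1. Genes linked to senescence and to HMGA proteins had 0 of 9 past 2-fold at day 0, 3 lower at day 3 and 1 lower at day 9. Snai1 and Snai2, transcription factors of mesenchymal cells, had -1.09 and -1.18 at day 3, and Junb, an AP-1 subunit, had -1.39 at day 3 and -1.19 at day 9.

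At day 9 against day 0, edgeR's quasi-likelihood test called 77 of the 119 listed genes at an adjusted p-value under 0.05, 25 higher and 52 lower, where it called 29.2% of all genes higher and 24.6% lower. Of the proliferation genes, 13 of 20 were lower and 1 was higher, and of the other HMG proteins 6 of 11 were higher and 2 lower, among them Hmgb3 (log2 effect 3.59) and Hmgn2 (2.72, named after its value was seen). These calls rest on the day 0 libraries that stood apart, and the fit treats the 2 arms as replicates of a day.

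Finally, the genes whose pattern was most like that of each member were listed by Pearson's r of log2(normalized count + 1) over the 6 libraries, as a description. For Hmga2 these were Ptk2 (focal adhesion kinase, r = 0.999), Lrp12 (0.998) and Pdgfc (0.997), and 329 of 13255 genes reached 0.95. The likeness concerns shape, not size, since Ptk2 ranged only from 1791 to 3317 normalized counts, whereas Pdgfc, a platelet-derived growth factor, went from 737.4 to 1887 at day 0 and stood at 129.9 and 123.6 at day 9. For Hmga1b they were Riok2, Ccnc and Iars (0.994, 0.993 and 0.992), for Hmga1 Rrp1, Gm11335 and Hnrnpa0 (1.000, 0.999 and 0.999), for Igf2bp1 Trpv3, Jkamp and Cacng4 (0.993 each), for Igf2bp2 Rbbp8, Btbd11 and B3galnt2 (0.999, 0.997 and 0.994), and for Igf2bp3 Gfod2, Nostrin and Itpripl1 (0.994, 0.991 and 0.990). Among the members, Hmga2 and Igf2bp2 had r = 0.949 over the 6 libraries and 0.836 over the 4 later ones. Hmga1 and Igf2bp1 had 0.918 over 6 and -0.152 over 4, and Hmga1 and Hmga1b had -0.159 over 6 and 0.968 over 4. These points share libraries, depth and scaling, and 0 of the 18 listed genes were again among the 3 most alike when the day 0 libraries were left out.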

How the data were processed

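Poly(A) RNA of 6 samples was sequenced from stranded libraries. The authors trimmed reads with Trim Galore, aligned them with HISAT2 to GRCm39, counted them per gene and deposited raw counts for each library. Tool versions, the annotation, the strand setting and the handling of multi-mapping reads are not given in the sources used here, and the latter can move reads between Hmga1 and Hmga1b. Size factors by the median-of-ratios method (DESeq2 1.42.0) scaled the counts. Folds are differences of log2(normalized count + 1), with 95% Clopper-Pearson intervals and a floor of 3 counts, both for counting error only. Totals of 16403254 to 38551551 counts per library set this precision.

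Members were not tested, since they were chosen by their differences in these libraries, and within a day each arm has 1 library. Listed genes were tested with edgeR 4.0.16 (R 4.3.3) in an additive model of treatment and day with 2 residual degrees of freedom. Days or arms stand in for replicates, so p-values measure effects only against the departures of these libraries from that model. A change of the FGF8 effect between days counts as such a departure, so a gene with a changing effect is harder to call. The step was tried on simulated counts with the same FGF8 effect on every day and no difference between days. That trial cannot show how the fit behaves on these libraries, where both vary. Members, lists and alternatives were chosen with earlier results of these data known. Named genes are the members, the 3 genes of each of the 8 lists with the largest FGF8 difference on any day at a mean of at least 100, the 3 genes most like each member, Ucp1 and markers. Dlk1, Hmgn2, Hmga2-ps1, Malsu1 and the genes that set day 0 apart fall outside this rule. Python 3.11.15 with pandas 2.3.3, scipy 1.17.1 and matplotlib 3.10.9 was used. Alternatives were TMM, total counts, size factors within a pair, a pseudocount of 0.5 or 5, a filter of 100 or none, rules of 1.5-fold and 4-fold, summed copies, DESeq2's Wald test, other filters and blocks, leaving out a day, longest transcripts and Spearman correlation.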

Additional observations from a re-analysis of the deposited data

Results flagged for a closer look

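Hmga2 and Igf2bp1 were singled out because the difference between FGF8-treated and untreated cells had opposite signs on different days, each with a counting interval that left out 0. For Hmga2 the log2 difference was 3.6214 at day 0 and -1.2288 at day 3. For Igf2bp1 it was 0.7376 at day 0 and -0.7726 at day 9. With 1 library per condition, the difference between days was not tested for either gene. Day 0 is also the time point at which Xist, Ifi202b and the share of reads listed under Hmga1 set both libraries apart from the later ones, and the part of this in the change of sign was not tested.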

How the results depend on the processing

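Among 285 folds of single members recomputed with other scalings and pseudocounts, 272 stayed within their counting interval, 13 moved outside it and 0 of the called ones changed direction. Over the scalings Hmga2 lay between 3.58 and 3.68 at day 0 and between -1.34 and -1.23 at day 3. With total counts the median log2 difference of all genes was as low as -0.31 (FGF8 arm, day 9 against day 0), against -0.03 with the main scaling. The 3 members called at day 0 became 4 without a filter and at 1.5-fold and 2 at 4-fold, and stayed 3 under the other 8 alternatives. At day 3 the count of 1 became 2 without a filter, 3 at 1.5-fold and 0 at 4-fold, and at day 9 the count of 0 became 2 at 1.5-fold. Between days, the untreated arm gave 2 in place of 1 from day 3 to day 9 without a filter, and 5 in place of 3 from day 0 to day 9 at 1.5-fold. The FGF8 arm gave 2 in place of 5 from day 0 to day 3 at 4-fold, and, from day 3 to day 9, 0 at a mean of 100 or more, 0 with Hmga2-ps1 summed with Hmga2 and 3 at 1.5-fold in place of 1. Listed genes called for the FGF8 effect numbered 3 in the edgeR fit, 21 with DESeq2's Wald test, 7 without a filter, 0 without the day block and from 0 to 26 with a day left out. Over all genes, edgeR called 152 genes, DESeq2 1692. Hmga2 in FGF8-treated cells at day 0 had 422.8 TPM on its longest transcript in place of 326.7, and Hmga1b and Igf2bp2 changed places. Summing Hmga1 with Hmga1b gave 4 in place of 5 members for the FGF8 arm from day 0 to day 3. Of the 18 genes most like a member, 1 was kept with Spearman correlation, 11 at a mean of at least 100 and 0 without the day 0 libraries. The summed copy Hmga2-ps1 and the day 0 libraries were added as alternatives after seeing the data. The causes of these changes were not tested. No paired analysis was possible because the labels carry no replicate numbers to pair by, apart from the pairing of the arms within a day, which is the block of the edgeR fit. Depth limits Lin28b, Hmga1 at day 0 and Hmga2 at day 9.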
